A study of Homo sapiens with 4 samples.

Results

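The 10 genes described here belong to glycolysis and to the cellular response to low oxygen: HIF1A, VEGFA, SLC2A1, HK2, ALDOA, GAPDH, PGK1, ENO1, PKM and LDHA. They were chosen by gene symbol and are 10 of the 28283 genes in the deposited FPKM table. All 10 have an FPKM value in both input libraries. In the m6A peak lists, 8 of them carry a peak under their own symbol in both conditions, HIF1A carries one in the shY2-2 list alone, and GAPDH carries none. With peaks limited to a false discovery rate (FDR) of at most 0.05, 7 genes carry one in both lists, and HK2 and HIF1A carry none.

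The libraries come from A549 cells, a human lung adenocarcinoma line grown in RPMI 1640 with serum. Control cells (shNC) carried a control vector, labelled PLKO_1, and knockdown cells (shY2-2) stably expressed, from a lentiviral vector, a single shRNA against YTHDF2, an m6A reader protein that promotes decay of bound mRNA. From each condition, poly(A) RNA was fragmented and sequenced once as input and once after precipitation with an antibody to m6A (IP), so every difference between conditions is a difference between single libraries and has no replicate check. YTHDF2 itself was at an FPKM of 3.56 in the shNC input and 1.02 in the shY2-2 input. Among markers of the line, the epithelial keratins KRT8 (523 and 322) and KRT18 (388 and 281) were high and both lower in shY2-2. The epithelial genes KRT19 (25.9 and 12.9), CDH1 (9.99 and 5.28) and EPCAM (2.02 and 1.20) had much lower levels and were also lower in shY2-2. The leukocyte gene PTPRC and the endothelial gene PECAM1 were at or below 0.0999, and the fibroblast gene COL1A1 was at 0.834 and 1.64. The alveolar type II genes SFTPC and NAPSA were at or below 0.252, and NKX2-1 and SFTPB had no FPKM value listed. The part of these marker levels in the values of the 10 genes was not tested.

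Glycolysis splits glucose into pyruvate and yields ATP without oxygen. Glucose enters the cell through SLC2A1, is trapped by hexokinases such as HK2, and passes through ALDOA, GAPDH, PGK1, ENO1 and PKM to pyruvate, which LDHA turns into lactate. When oxygen is scarce, the HIF1A protein escapes degradation, pairs with ARNT and switches on transcription of most of these enzymes, of SLC2A1 and of VEGFA. HIF1A is controlled mainly at the protein level, which RNA sequencing does not measure.

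The unit of the input data is FPKM, fragments scaled to the length of the transcript and to the mapped fragments of the library, so levels can be compared between genes. The order of the 10 genes by FPKM was the same in both libraries: GAPDH, ENO1, PKM, LDHA, PGK1, ALDOA, HIF1A, SLC2A1, VEGFA, HK2. From the highest to the lowest, the level spanned 6385-fold in shNC. Together they held 2.04% of the summed FPKM of the shNC input and 2.12% of that of the shY2-2 input. The difference between conditions is given as log2((FPKM shY2-2 + 1)/(FPKM shNC + 1)), a ratio whose pseudocount of 1 shrinks the difference of weakly expressed genes. Ratios were set beside those of the 12268 genes that reached an FPKM of 1 in either input library, of which 50.3% were higher in shY2-2.

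**Figure D1:**
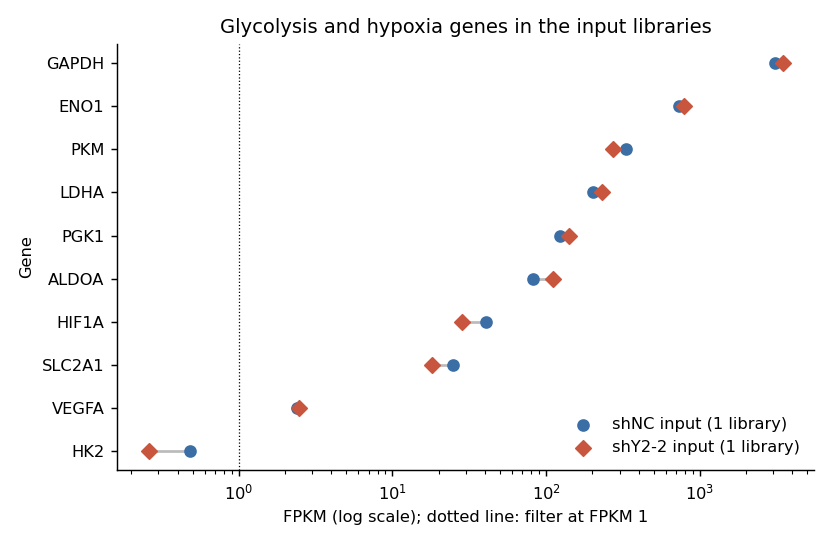
FPKM on a log axis of the 10 genes in the shNC input (circles) and the shY2-2 input (diamonds), 1 library each. The order of the genes is the same in both libraries, from GAPDH at 3088 and 3461 down to HK2 at 0.484 and 0.259, left of the filter line at 1.

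None of the 10 genes passed a log2 ratio of 1 in either direction, where 0.986% of the 12268 genes lay above 1 and 2.14% below −1. Of the 9 genes that met the filter, 6 were higher and 3 lower in shY2-2, and their ratios ran from −0.50 to 0.43 with a median of 0.11, against a median of 0.00 over all genes kept. HK2 did not meet the filter.

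HIF1A (ENSG00000100644, chr14:61695513-61748259, plus strand, GRCh38), the oxygen-regulated subunit of the transcription factor, had an FPKM of 40.6 in shNC and 28.4 in shY2-2. This was the lowest ratio of the 9 genes, −0.50, and 11.5% of all genes kept had a lower one. VEGFA (chr6:43770184-43786487, plus strand), the growth factor that drives vessel formation, was at 2.39 and 2.48, a log2 ratio of 0.04. HIF1A and VEGFA, a regulator and one of its targets, thus lay at the 11.5th and the 53.7th percentile of all genes kept.

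SLC2A1 (chr1:42925375-42959173, minus strand), which encodes the glucose transporter GLUT1, was at 24.8 in shNC and 18 in shY2-2. Its log2 ratio was −0.45, at the 14th percentile. HK2 (chr2:74833981-74893359, plus strand), a hexokinase bound to mitochondria in many tumors, was the weakest of the group at 0.484 and 0.259. Without a pseudocount its log2 ratio was −0.90, which the pseudocount reduced to −0.24.

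The numbers of fragments behind these values were estimated from the FPKM steps. The most common FPKM above 0 was 0.171 in shNC and 0.137 in shY2-2, taken as a mean coverage of 1 read per base. This put the shY2-2 input at 1.25 times the depth of the shNC input, and the most common fragment held 282 aligned bases. HK2 then rests on about 56 and 38 fragments, and the ratio of its FPKM, 0.537, has a 95% exact interval of 0.351 to 0.836. VEGFA rests on about 179 and 231 fragments, with a ratio of 1.04 (0.848 to 1.26). The other 8 genes had at least 1574 fragments in each library. These intervals cover counting error only, not the spread between cultures, and PCR copies of a fragment are not independent molecules.

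Of the enzymes below hexokinase, ALDOA (chr16:30053090-30070457, plus strand), the aldolase that splits the phosphorylated sugar, was at 81.8 in shNC and 111 in shY2-2. Its log2 ratio of 0.43 was the highest of the 9 genes and lay at the 88.7th percentile. GAPDH (chr12:6533927-6538374, plus strand), the dehydrogenase that makes NADH in glycolysis, was at 3088 and 3461, a ratio of 0.16. By mean FPKM it ranked 2 of the whole table. PGK1 (chrX:78065188-78129296, plus strand), which makes ATP in the next step, was at 123 and 140, a ratio of 0.19.

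ENO1 (chr1:8861002-8879249, minus strand), the enolase that makes phosphoenolpyruvate, was at 734 and 791, a ratio of 0.11. PKM (chr15:72199029-72231822, minus strand), the pyruvate kinase that makes ATP and pyruvate, was at 333 and 273. With a log2 ratio of −0.29, at the 23.6th percentile, PKM was the only one of the 6 strongly expressed enzymes that was lower in shY2-2. LDHA (chr11:18394388-18408425, plus strand), the lactate dehydrogenase subunit, was at 203 and 232, a ratio of 0.19.

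Strongly expressed genes as a whole were higher in the shY2-2 library. Over the 659 genes kept with a mean FPKM of at least 50, the median log2 ratio was 0.16, the quartiles were −0.08 and 0.36, and 68.6% were higher in shY2-2. GAPDH lay exactly at that median, and PGK1 and LDHA were at the 53.7th and the 54.3rd percentile of these 659 genes. ENO1 was at the 42.6th, ALDOA at the 85.9th and PKM at the 14.1th percentile. With the ratios centred on the median of these genes, an alternative added after the data were seen, 3 of the 9 genes were higher in shY2-2 (ALDOA, PGK1 and LDHA) instead of 6. The direction of ENO1 and VEGFA turned to lower, at −0.058 and −0.13, and GAPDH came to 0, while HIF1A, SLC2A1 and PKM stayed lower at −0.67, −0.61 and −0.45.

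**Figure D2:**
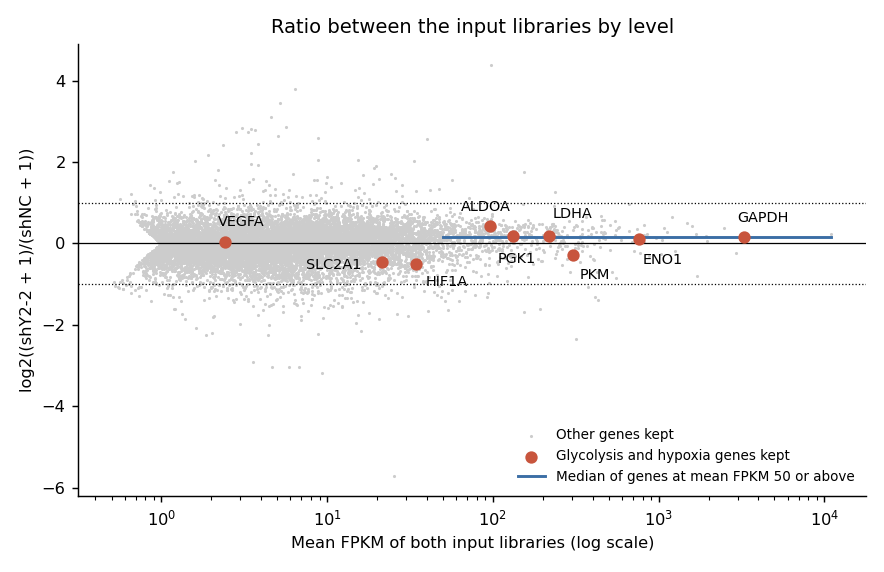
Log2 ratio of shY2-2 over shNC (y axis, pseudocount of 1) against the mean FPKM of both input libraries (log x axis) for all genes kept in grey and the 9 glycolysis and hypoxia genes kept in red; dotted lines mark a ratio of 1 in either direction. The blue line is the median of the 659 genes at a mean FPKM of 50 or more, 0.16, and GAPDH, PGK1, LDHA and ENO1 lie close to it.

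To place the 10 genes in their pathways, 7 lists of 105 different genes were used, of which 101 are in the table and 78 met the filter. Of these 78, 3 (3.85%) lay above a log2 ratio of 1 and 2 (2.56%) below −1, beside 0.986% and 2.14% of all genes kept. The 5 were ADPGK, HMOX1 and MXI1 above and SLC2A3 and P4HA1 below. No list was tested against chance.

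Of 25 glycolytic enzymes in the table, 19 met the filter, 13 of them higher and 6 lower in shY2-2, with a median log2 ratio of 0.11. ADPGK, a glucokinase that uses ADP, was at 9.16 in shNC and 21.6 in shY2-2, a ratio of 1.15 and the highest of the list. HK1, the hexokinase of most tissues, had the lowest ratio of the list, −0.48, at 13.8 and 9.57. Its level was far above that of HK2 in both libraries, and both hexokinases were lower in shY2-2.

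Among glucose transporters, 3 of 5 in the table met the filter. SLC2A3, the GLUT3 transporter, was at 7.44 in shNC and 2.71 in shY2-2, a ratio of −1.19. SLC2A1 and SLC2A3 were thus both lower in shY2-2, while SLC2A8, an intracellular transporter, was at 1.43 and 1.94, a ratio of 0.27. In the list of lactate and pyruvate transport, 3 of 4 genes kept were higher in shY2-2, from SLC16A3, the lactate exporter MCT4, at −0.09 to SLC16A1, the lactate carrier MCT1, at 0.40, with a list median of 0.32.

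The 12 regulators of glycolytic flux kept were split evenly, 6 higher and 6 lower, around a median of 0.00. PFKFB3, which makes the activator of phosphofructokinase, was at 41.1 in shNC and 60.1 in shY2-2, a ratio of 0.54 and the highest of the list. PDK4, a kinase that shuts off pyruvate dehydrogenase, was at 15.4 and 7.41, a ratio of −0.97 and the lowest.

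In the list of HIF subunits and oxygen sensing, 7 genes kept were higher and 8 lower, with a median of −0.02. EPAS1, which encodes the related subunit HIF-2 alpha, was at 41.5 in shNC and 23.4 in shY2-2, a ratio of −0.80 and the lowest of the list, so both oxygen-regulated subunits that passed the filter were lower in shY2-2. ELOC, part of the ubiquitin ligase that removes them, had the highest ratio, 0.39, at 6.83 and 9.28.

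Of 21 hypoxia-induced genes outside glycolysis kept, 10 were higher and 11 lower, with a median of −0.07. HMOX1, heme oxygenase, which also responds to heme and oxidative stress, was at 69.4 in shNC and 238 in shY2-2, a ratio of 1.77. MXI1, an antagonist of MYC, was at 1.29 and 4.69, a ratio of 1.31. P4HA1, a collagen prolyl hydroxylase, was at 16.4 and 7.06, a ratio of −1.11. The genes past the threshold in this list thus lay on both sides of it. In the VEGF family and its receptors, 5 of 9 genes met the filter with a median of 0.04, from NRP1, a co-receptor, at 14.3 and 8.53 (−0.69) to VEGFB at 10.2 and 12.6 (0.28).

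**Figure D3:**
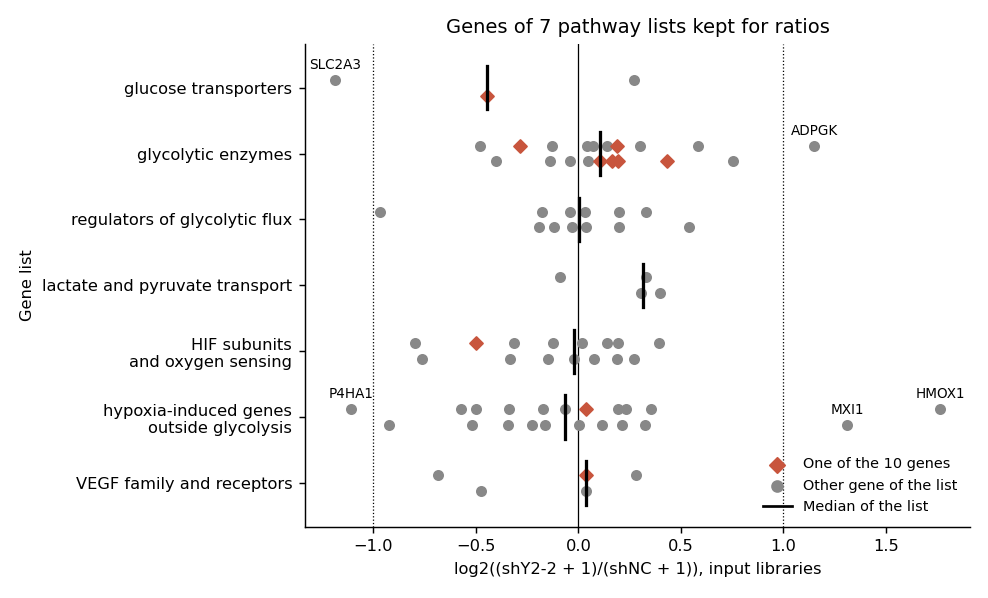
Log2 ratio of shY2-2 over shNC (x axis, pseudocount of 1) of each gene kept in the 7 lists, with the 9 glycolysis and hypoxia genes kept as red diamonds and the list median as a black bar; dotted lines mark a ratio of 1 in either direction and the genes beyond them are named. The red diamonds all lie between −0.50 and 0.43, and the 5 genes past the dotted lines are other members of the lists.

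The m6A peaks are regions in which the IP library was enriched over the input of the same condition, each with a fold enrichment (IP divided by input, on a linear scale) and an FDR from the authors' peak caller. With repeated positions counted once, the 10 genes carried 29 peaks in shNC, of 31057 in all, and 27 in shY2-2, of 27344 in all. The lists are not limited to peaks with a small FDR. An FDR of at most 0.05 was given to 56.4% of all shNC and 52.1% of all shY2-2 peaks, and to 22 and 20 here. The counts below use every listed peak unless a limit is given. The number of reads behind a peak is unknown. Of 12202 genes kept that have a reference transcript, 72.9% had a peak under their own symbol in both lists, 81.5% had one in shNC and 78.6% had one in shY2-2, beside 7 of the 9 genes here that met the same filter. HK2, the other of the 8 genes with a peak in both lists, did not meet it. Among the strongly expressed genes with a mean FPKM of at least 50, 88.0% had a peak in both lists.

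The typical fold enrichment was low on these transcripts. The median was 1.64 over the 29 shNC peaks and 1.68 over the 27 shY2-2 peaks, beside 2.17 and 2.26 over all peaks and 1.83 and 1.90 over peaks of genes with a mean FPKM of at least 50. A fold enrichment below 2 was given to 19 of the 29 and 16 of the 27 peaks, beside 42.3% and 40.6% of all peaks. An FDR of at most 0.001 was given to 18 of 29 (62.1%, 95% Wilson interval 44 to 77.3) and 17 of 27 (63.0%, 44.2 to 78.5), beside 31.8% and 31.6% of all peaks.

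Most peaks recurred in the other condition. Of the shNC peaks 19 of 29 (65.5%, 47.3 to 80.1) shared at least 1 exonic base with a peak of the same gene in the shY2-2 list, beside 55.3% of all shNC peaks. In the other direction it was 19 of 27 (70.4%, 51.5 to 84.1), beside 64.7% of all shY2-2 peaks. With both lists limited to an FDR of at most 0.001, the shared part was 88.9% and 94.1%, beside 68.4% and 78.9% of all peaks under the same limit. The shared part was not set beside that of strongly expressed genes, so the part of expression level in it was not tested. Of the 10 shNC and 8 shY2-2 peaks that met no peak of the other list, 8 and 8 had an FDR above 0.001, beside 92.4% and 95.0% of all such peaks.

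**Figure D4:**
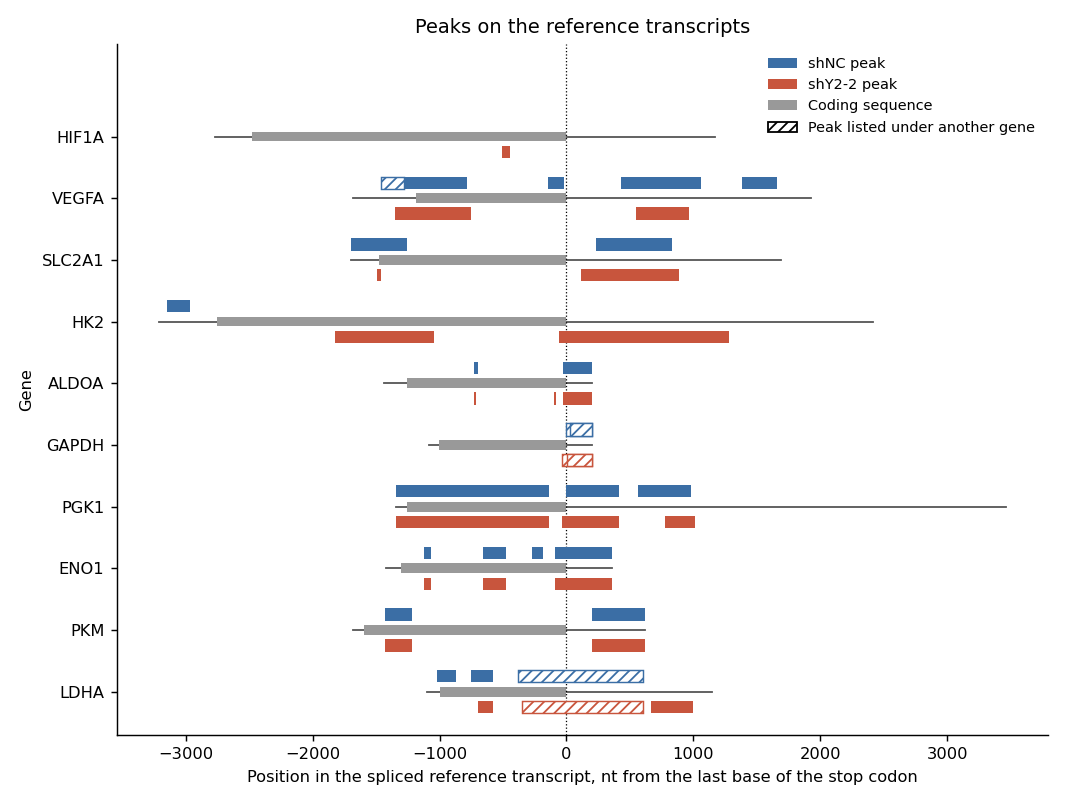
Peaks on the spliced reference transcript of each gene, in nt from the last base of the stop codon (negative is upstream), with shNC peaks in blue above and shY2-2 peaks in red below; grey bars are coding sequence and hatched boxes are peaks listed under another gene. Peaks or parts of peaks outside the reference transcript are not drawn. The 3′ peaks of ENO1, PKM, PGK1, ALDOA, VEGFA and SLC2A1 appear in both conditions, and on GAPDH only hatched boxes are seen, at the stop codon and in the 3′-UTR.

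Of the peaks listed under the genes' own symbols, those with the smallest FDR were on PKM and ENO1. The last 421 nt of PKM (chr15:72199029-72199449, 3′-UTR, exon 11 of ENST00000335181) formed a peak with the same boundaries in both lists, at a fold enrichment of 2.10 in shNC and 2.06 in shY2-2, with an FDR listed as below the smallest value the file can hold. A PKM peak in the coding sequence, over exons 3 and 4 (chr15:72210318-72217488 with the intron removed), also had identical boundaries, with a fold of 3.06 and 3.17. Another PKM region, chr15:72200825-72201184 in shNC and extended to 72201244 in shY2-2, had a fold of 4.10 and 5.22 and lies in intron 9 of the reference transcript. In both lists this intronic region had a higher fold than the 3′-UTR peak, with an FDR of 1.58e-21 and 3.16e-30.

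In ENO1, 3 of 4 peaks in each list had identical boundaries. The peak over the stop codon and the whole 3′-UTR (chr1:8861002-8862909, exons 11 and 12, 451 nt) had a fold of 1.54 and 1.55 and an FDR of 1e-256 and 1e-308. A coding peak over exons 7 and 8 (chr1:8865326-8866302) had a fold of 1.30 and 1.21. A coding peak over exons 9 and 10 was in shNC alone (chr1:8863288-8863925, fold 1.11, FDR 3.16e-20). For these abundant transcripts a small fold enrichment came with a very small FDR.

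ALDOA carried a peak at its stop codon and 3′-UTR with the same boundaries in both lists (chr16:30070188-30070457), at a fold of 1.47 and 1.52. Around chr16:30064418-30064687 each list held 2 overlapping ALDOA peaks, with folds of 1.93 and 1.64 in shNC and 1.57 and 1.41 in shY2-2, in 5′ sequence that is outside the reference transcript ENST00000642816. AC093512.1, a gene on the opposite strand (chr16:30064306-30064825), spans these peaks and was at an FPKM of 0 in shNC and 0.144 in shY2-2. Whether peaks were called by strand is not stated, so the strand of the RNA behind them is not known. A further ALDOA peak with a fold of 7.63 was in the shNC list alone, at an FDR of 0.140.

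PGK1 carried 3 peaks in each list, all shared. The peak at the stop codon (chrX:78125826-78126245 in shNC) had a fold of 1.27 and 1.28. The peak over exons 1 to 9 had a fold of 1.59 in shNC and 3.63 in shY2-2, the largest difference among the matched peaks. The shY2-2 version began further upstream, at chrX:78096747 instead of chrX:78104212, and held 1467 instead of 1407 nt, the added 60 nt lying outside the reference transcript. The FDR of the 2 versions was similar, at 5.01e-55 and 3.98e-56.

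SLC2A1 carried a 3′-UTR peak in both lists, chr1:42926211-42926809 with a fold of 1.98 in shNC and chr1:42926152-42926928 with 2.20 in shY2-2. Another, which held the start codon in exon 1, had a fold of 2.63 and 2.44 and an FDR of 0.00257 and 0.0275. Its versions in the lists had only 61 nt in common, and 178 of the 210 nt of the shY2-2 version lay in intron 1. Peaks that touch exons 2 and 3 were in the shNC list alone, at folds of 1.62 and 1.22 and FDRs of 0.00912 and 0.0977. Of their 270 and 150 nt, 174 and 42 lay outside the reference transcript.

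VEGFA carried 6 peaks in shNC and 2 in shY2-2. The 2 shared ones were at the start codon of the reference transcript (chr6:43770513-43771112 in shNC, fold 2.99 and 2.74) and in the 3′-UTR (chr6:43784990-43785619 in shNC and chr6:43785110-43785529 in shY2-2, fold 1.98 and 1.69). The authors label the first 5′-UTR, while 406 of its 600 nt in shNC are coding in the reference transcript. A shNC peak listed under AL136131.3, on the opposite strand, overlaps it in exon 1 (chr6:43770429-43770616, fold 2.58, FDR 0.000776). The strand of the RNA behind this signal is not known. Of the 4 peaks in shNC alone, 3 had an FDR of 0.164 or more, and the other, further along the 3′-UTR, had an FDR of 0.0347. The input level of VEGFA was almost the same in both libraries, at 2.39 and 2.48.

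HK2 and HIF1A gave no shared peak. HK2 had 1 peak in shNC, in its 5′-UTR, and 2 in shY2-2, with folds of 4.2, 8.09 and 6.94 but FDRs of 0.272, 0.603 and 0.979, on a transcript with about 56 and 38 input fragments. The single HIF1A peak, 61 nt in exon 12, had a fold of 1.09 and an FDR of 0.401. LDHA shared 1 peak under its own symbol, around exon 4, with folds of 1.61 and 1.42. It had a peak over its start codon in shNC alone (chr11:18396817-18397027, fold 1.19, FDR 4.9e-07). In shY2-2 alone it had a peak in 5′ sequence (chr11:18394808-18395255, fold 1.64, FDR 0.011) and one in the 3′-UTR (chr11:18407945-18408275, fold 12.7, FDR 0.0234).

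**Figure D5:**
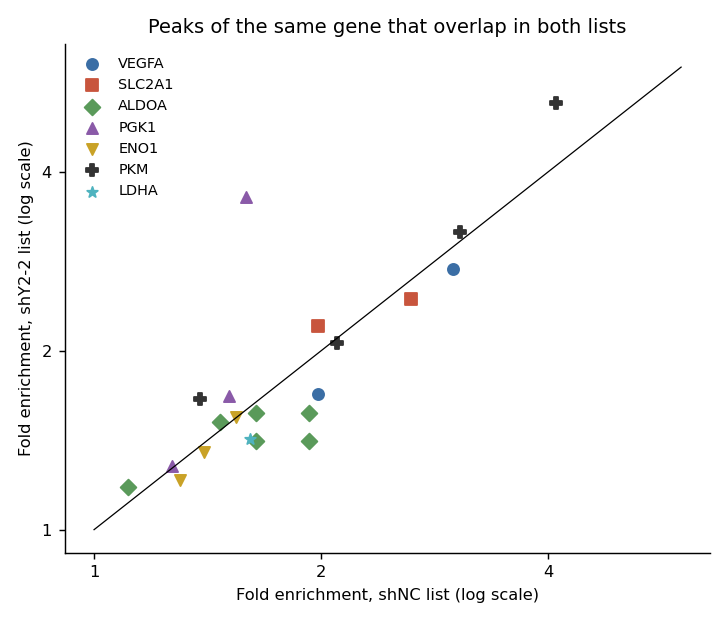
Fold enrichment in the shNC list (x axis) and in the shY2-2 list (y axis), both on log scales, for the 21 pairs of peaks of the same gene that share exonic bases; the line marks equal values. Most pairs lie near the line, and the PGK1 pair at 1.59 and 3.63 lies farthest above it.

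Over the 21 matched pairs, 10 had a higher and 11 a lower fold enrichment in shY2-2. The log2 ratio of the folds ran from −0.45 to 1.19 with a median of −0.03, beside a median of −0.08 over the 21149 matched pairs of all genes, of which 41.9% were higher in shY2-2. In 6 pairs the boundaries were identical. The 4 ALDOA pairs upstream share 4 peaks and are not independent of each other.

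GAPDH, the most abundant of the 10 mRNAs and, by mean FPKM, the highest of the 1562 genes kept that have no peak under their own symbol in either list, was not free of peaks. Its last exon lies opposite AC006064.4, a gene on the minus strand (chr12:6537794-6538370), and both lists hold 2 peaks over GAPDH exon 9 that carry that name. The larger one, chr12:6538165-6538374 in shNC and chr12:6538136-6538374 in shY2-2, covers the GAPDH stop codon and 201 nt of its 3′-UTR, with a fold of 1.5 and 1.54 and an FDR of 1e-303 or less. AC006064.4 was listed at an FPKM of 40.8 and 36, beside 3088 and 3461 for GAPDH. In both lists the larger peak ends at the last base of GAPDH, 6538374, which is beyond the end of AC006064.4. The smaller peak ends at 6538370, the last base of AC006064.4. The libraries keep strand, but the sources used here do not state whether peaks were called by strand. The strand of the RNA behind either peak is therefore not known.

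LDHA showed the same in its 3′ part. A peak over exons 6 to 8, with the stop codon, is listed under AC084117.1, a gene on the same strand with an FPKM of 0.0513 and 0.120, while LDHA was at 203 and 232. It ran over chr11:18403716-18407885 in shNC and from 18403746 in shY2-2, with a fold of 1.45 and 1.5 and an FDR of 1e-147 and 1e-207. With it, LDHA holds a stop codon peak in both lists. Of the genes kept without an own peak in either list, 414 of 1562 (26.5%) had, like GAPDH, a peak of another name on their reference exons in both.

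By the authors' annotation, 11 of the 29 shNC peaks (37.9%, 22.7 to 56.0) and 12 of the 27 shY2-2 peaks (44.4%, 27.6 to 62.7) were in a 3′-UTR, beside 59.1% and 59.5% of all peaks. For the 5′-UTR it was 8 of 29 (27.6%, 14.7 to 45.7) and 8 of 27 (29.6%, 15.9 to 48.5), beside 15.5% and 15.9%. The peaks come from only 8 genes in shNC and 9 in shY2-2, and some overlap. The intervals treat them as independent and can be too narrow. Of the 19 and 20 peaks labelled with a UTR, 6 and 8 had no base in that UTR of the reference transcript, among them the PKM peak over exons 3 and 4, labelled 3′-UTR.

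The m6A methyltransferase acts on adenosines in a short consensus, of which GGAC, and within it GGACT, are the forms searched here, on the strand of the gene and in the spliced sequence of each peak. GGAC was in 14 of 29 shNC peaks (48.3%, 31.4 to 65.6) and 15 of 27 shY2-2 peaks (55.6%, 37.3 to 72.4), beside 61.0% and 60.6% of all peaks. GGACT was in 5 of 29 (17.2%, 7.6 to 34.5) and 9 of 27 (33.3%, 18.6 to 52.2), beside 28.7% and 29.2%. Peaks differ in length, with a median of 270 nt in both lists and, here, of 270 and 241 nt, and a longer peak holds a motif more often.

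The exonic bases that both lists mark hold GGACT in PKM, PGK1, ENO1 and LDHA. These sites are printed because they are where the recurrent peaks and the preferred motif meet, as 25 nt of the GRCh38 transcript strand, 5′ to 3′, with the motif in capitals. Each line names the position of the central adenosine.
PKM 3′-UTR, chr15:72199402-72199402, minus strand: gaggaatgctGGACTggaggcccct
PKM 3′-UTR, chr15:72199306-72199306, minus strand: gatgcccagaGGACTcccaaccctg
PGK1 coding, chrX:78114036-78114036, plus strand: tgttcttgaaGGACTgtgtaggccc
PGK1 coding, chrX:78124881-78124881, plus strand: ggatgggcttGGACTgtggtcctga
ENO1 coding, chr1:8865371-8865371, minus strand: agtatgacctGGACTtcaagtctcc
LDHA outside the reference transcript, chr11:18402624-18402624, plus strand: aataattaatGGACTtgatatacat

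The 2 PKM sites lie 248 and 344 nt past the stop codon, in the peak with the smallest FDR among those under the genes' own symbols. The peaks on LDHA that carry the name AC084117.1 hold 3 more, 2 in the coding sequence and 1 located 117 nt past the stop codon.
LDHA coding, chr11:18403759-18403759, plus strand: ccagatttagGGACTgataaagata
LDHA coding, chr11:18405497-18405497, plus strand: ctgggctattGGACTctctgtagca
LDHA 3′-UTR, chr11:18407398-18407398, plus strand: attttaagatGGACTgggaaaaaca

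The stretch of GAPDH marked in both lists under the antisense gene's name holds no GGACT and 1 GGAC on the GAPDH strand, 10 nt past the stop codon. The shared SLC2A1 bases hold 3 GGAC and no GGACT, all in the 3′-UTR. Those of VEGFA hold 7 GGAC and no GGACT, 4 in the coding sequence of the reference transcript and 3 in the 3′-UTR. They are shown for GAPDH and SLC2A1 because these peaks recur without the longer motif.
GAPDH 3′-UTR, chr12:6538180-6538180, plus strand: taagacccctGGACcaccagcccca
SLC2A1 3′-UTR, chr1:42926654-42926654, minus strand: ctgtagggctGGACctatgtcctaa
SLC2A1 3′-UTR, chr1:42926639-42926639, minus strand: tatgtcctaaGGACacactaatcga
SLC2A1 3′-UTR, chr1:42926230-42926230, minus strand: tagtatatctGGACaagccaacttg

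The ALDOA bases marked in both lists, among them those at its stop codon, hold neither motif. A motif match in a peak describes the sequence and does not show which adenosine was methylated.

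Set beside the input levels, the genes with recurrent peaks did not move one way. PKM, with shared peaks at folds of 2.10 and 2.06 in the 3′-UTR, was lower in shY2-2, as was SLC2A1, with 1.98 and 2.20. ALDOA, PGK1, ENO1 and LDHA, which also carry shared peaks, were higher in shY2-2. Centred on the strongly expressed genes, ALDOA stayed higher at 0.27, PGK1 and LDHA came to 0.025 and 0.029, and ENO1 to −0.058. PKM and SLC2A1 stayed lower under that centring. VEGFA, with shared peaks at both ends, differed by 0.04, and HIF1A, with no shared peak, had the lowest ratio of the 9 genes kept.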

How the data were processed

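RNA-seq (input) and m6A-seq (IP) libraries of shNC and shY2-2 A549 cells were analysed, 1 of each kind per condition, grouped by the labels. Reads were aligned by the authors to GRCh38 (HISAT2), StringTie gave the deposited FPKM values of the input libraries, and exomePeak called peaks in each condition from 1 IP library against its input. The deposited fold enrichment divides IP by input and is a linear ratio. Each peak also has the authors' p-value, and its log10 scores (of that p-value and of the FDR) are as deposited. Tool versions are not given in the sources used here.

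The 10 genes and the pathway lists were chosen with earlier results of these data known. FPKM values are not counts, so no count test was run, and no p-value was computed with 1 library per condition. Log2 ratios used a pseudocount of 1, and the filter was an FPKM of 1 or more in either input library. Fragments behind an FPKM value were estimated from the FPKM at a coverage of 1: over single-exon genes, FPKM times length divided by that value was a whole number of bases within 0.02 in 76.7% of 3709 (shNC) and 77.3% of 3953 (shY2-2) values. The genes named in the lists are those with the highest and the lowest ratio and every gene past 1 in size. Alternatives were another pseudocount, other FPKM filters, centring, stricter peak filters, another overlap, other location rules and GGACT. Every FPKM column had its sample.

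Peaks that repeat a position were counted once and called shared where their exonic blocks met by 1 bp or more on one strand. Reference transcripts are the canonical ones of GENCODE release 44 on GRCh38. Wilson intervals on shares are at 95% and cover the counting of peaks only. They treat peaks of the same gene as independent and can be too narrow. Functions were tested on simulated data. Software was pysam 0.24.0, SciPy 1.17.1, matplotlib 3.10.9, pandas 2.3.3 and NumPy 2.4.6 under Python 3.11.15.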

Additional observations from a re-analysis of the deposited data

How the results depend on the processing

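Of 143 values recomputed under alternatives, 100 stayed and 43 moved. Ratios and medians were said to stay within 0.1 log2, and counts within 1.5-fold. The ratio of a single gene does not depend on the FPKM filter, so under other filters it could only stay. Of the 143 values, 34 were added after the data were seen, 22 of them from the centring on strongly expressed genes and 12 from further counts under the other settings. Under each alternative, none of the 10 genes that met its filter passed a log2 ratio of 1; HK2 met one only without a filter, and VEGFA did not meet an FPKM of 5. A pseudocount of 0.1 put 315 instead of 121 of all genes above 1 and 602 instead of 262 below −1. Without the FPKM filter the median of the glucose transporters was 0.11 instead of −0.45. With an FPKM of at least 5 it was −0.82, that of hypoxia-induced genes outside glycolysis −0.20 and that of the VEGF family −0.48. Centred on the genes with a mean FPKM of 50 (462 genes below −1), the median of the 9 genes was −0.058 with 3 higher in shY2-2, and the list medians were −0.61 for glucose transporters, −0.058 for glycolytic enzymes, −0.16 for flux regulators, 0.15 for lactate and pyruvate transport, −0.18 for oxygen sensing, −0.23 for hypoxia-induced genes and −0.13 for the VEGF family.

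A fold enrichment of at least 4 left 2 genes with a peak in both lists, 5 peaks in each list and 20% of them shared in each direction. An FDR of at most 0.05 raised the shared part to 81.8% of shNC and 90.0% of shY2-2 peaks, and one of 0.001 left 18 and 17 peaks, 88.9% and 94.1% of them shared. By overlap with the reference transcript, 11.1% of shY2-2 peaks touched the 5′-UTR, and 55.2% of shNC and 55.6% of shY2-2 peaks the coding sequence. By midpoint, 6.90% of shNC and 0% of shY2-2 peaks were in the 5′-UTR. GGACT instead of GGAC gave 17.2% and 33.3%. Fewer genes or peaks in a list make its share or median less precise. No paired analysis was possible because each condition has 1 input and 1 IP library and no test was run.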

Other observations

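Several of the 10 genes have processed pseudogenes that resemble their mRNA, and the part of their reads in the values of the 10 genes was not tested. The table lists 9 GAPDH pseudogenes with a summed FPKM of 2.85 in shNC and 1.13 in shY2-2, at most 0.0922% of GAPDH. The 3 ENO1 pseudogenes summed to 10.1 and 7.57, or 1.38% and 0.958% of ENO1, the largest share among the genes at an FPKM of 1 or more. The 4 LDHA pseudogenes summed to 1.24 and 1.43 and the 3 PKM pseudogenes to 0.143 and 0.280. The same search by name matched 0 genes of the table for HIF1A, VEGFA, SLC2A1, ALDOA and PGK1.

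Other genes overlap the 10 on the genome. Apart from AC006064.4 opposite GAPDH, every overlapping gene of the table was at an FPKM of 0.490 or less in both libraries, among them HIF1A-AS2 at 0.182 and 0.206 and SLC2A1-AS1 at 0.191 and 0.143. AC019069.1, opposite the start of HK2, was at 0.490 in shNC and 0.376 in shY2-2, beside HK2 itself at 0.484 and 0.259.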
